A study of Ictidomys tridecemlineatus with 10 samples.

Results

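GABA and glycine are the inhibitory transmitters of the brain, and the genes followed here encode their receptors, the enzymes that make and break down GABA, the transporters that load and retrieve both, and a chloride exporter that sets the effect of their receptors. GABA-A and glycine receptors are chloride channels built of several subunits around a pore, whereas the GABA-B receptor acts through G proteins. How strongly the channels inhibit a neuron depends on the chloride inside the cell, which potassium-chloride exporters lower and sodium-potassium-chloride importers raise. Neurons of the subfornical organ, which lies on the midline and lacks a blood-brain barrier, sense osmolality and angiotensin and drive thirst, and GABAergic neurons within it are known from mice to counter thirst.

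The genes were chosen by symbol, 27 in all, with the condition that a gene's mean over the 10 libraries be at least 0.5 normalised CPM (counts scaled to library size). All 27 were among the 25964 genes of the deposited table, and 25 met the condition. Slc12a5, at a mean of 0.783 CPM, lay just inside the condition, and Gabrd, at 0.330 CPM, and Slc6a5, at 0.142 CPM, lay outside it. Of the 25, 24 also had a mean of at least 1 CPM and entered the test across all genes, and Slc12a5 did not. The study sequenced RNA of the subfornical organ of the thirteen-lined ground squirrel, a rodent that hibernates, in 5 libraries from Active animals, which were not hibernating, and 5 from animals in interbout arousal (IBA), the spell of normal body temperature that separates torpor bouts in the hibernation season. The labels used here give no genotype, drug or age, and the organ was cut out by hand from brain slices. CPM values are not corrected for transcript length, so they compare a gene between libraries and not one gene with another.

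Each library held 20993093 to 35382203 reads, and each difference given is that of IBA minus Active in log2(CPM + 0.5), a scale on which differences of genes with low values come out too small. Across all genes, limma called 62 of the 15445 tested at an adjusted p under 0.05, which is 0.401%. Markers of the cell types of the region were read as list scores, the mean log2 deviation from each gene's own mean. All 18 general neuron markers were tested, with scores from -0.18 to 0.16 in Active and -0.42 to 0.27 in IBA libraries, and their summed level was 3353 to 4921 and 3736 to 5526 CPM. Of 8 subfornical neuron markers, 7 had a mean of at least 1 CPM, and Rxfp1 was under it. The score of this list was -0.45 to 0.08 in Active and -0.21 to 0.27 in IBA libraries, with summed levels of 632 to 1008 and 853 to 1431 CPM. Most of that sum was a single gene, Scn7a, at 422 to 808 CPM in Active and 677 to 1224 CPM in IBA. The summed level therefore mainly follows Scn7a. Of the 7 tested genes of this list, 5 had higher means in IBA and none was called. The part of these neurons in the differences of the receptor genes was not tested. Active replicate 4 stood apart by its choroid plexus score of 2.73, while the remaining Active libraries held -1.01 to 0.27, and its neuron score was the lowest of the Active libraries. IBA replicate 4 had the lowest neuron score of all. Of the markers of the other 11 cell classes only 3 were called in limma, all of microglia and macrophages: P2ry12 and Tyrobp were higher in IBA and Lyve1 was lower (adjusted p = 0.0347 each). In whole tissue, more RNA per cell and more cells of a kind cannot be told apart.

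None of the 24 tested genes passed the threshold in limma, where 0.401% of all genes did. On reads recovered from the CPM values, edgeR's quasi-likelihood test also called 0 of them, beside 0.369% of all genes. DESeq2 called 4, beside 9.93% of all genes: 2 were higher (3.88% of all genes) and 2 lower (6.06%). At the looser adjusted p under 0.1, limma had 3 of 24, beside 7.74% of all genes, with 2 higher (3.90%) and 1 lower (3.83%). At an unadjusted p under 0.05 in limma there were 6 of 24, 4 higher and 2 lower in IBA, which lies near the 23.9% of all genes (12.7% higher and 11.1% lower). The 4 higher were Gad1, Gad2, Gabrg1 and Gabrb2, and the 2 lower were Abat and Gabbr1. Means were higher in IBA for 18 of the 24, beside 54.1% of all genes tested, and lower for 6, beside 45.9%. The median log2 difference of the 24 was 0.14, beside 0.03 for all genes. The 3 genes outside the test all had lower means in IBA, so of the 27 there were 18 higher and 9 lower. By role, GABA-A receptor subunits and GABA synthesis had mostly higher means in IBA, and GABA breakdown and the GABA-binding GABA-B subunit had lower ones.

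**Figure D1:**
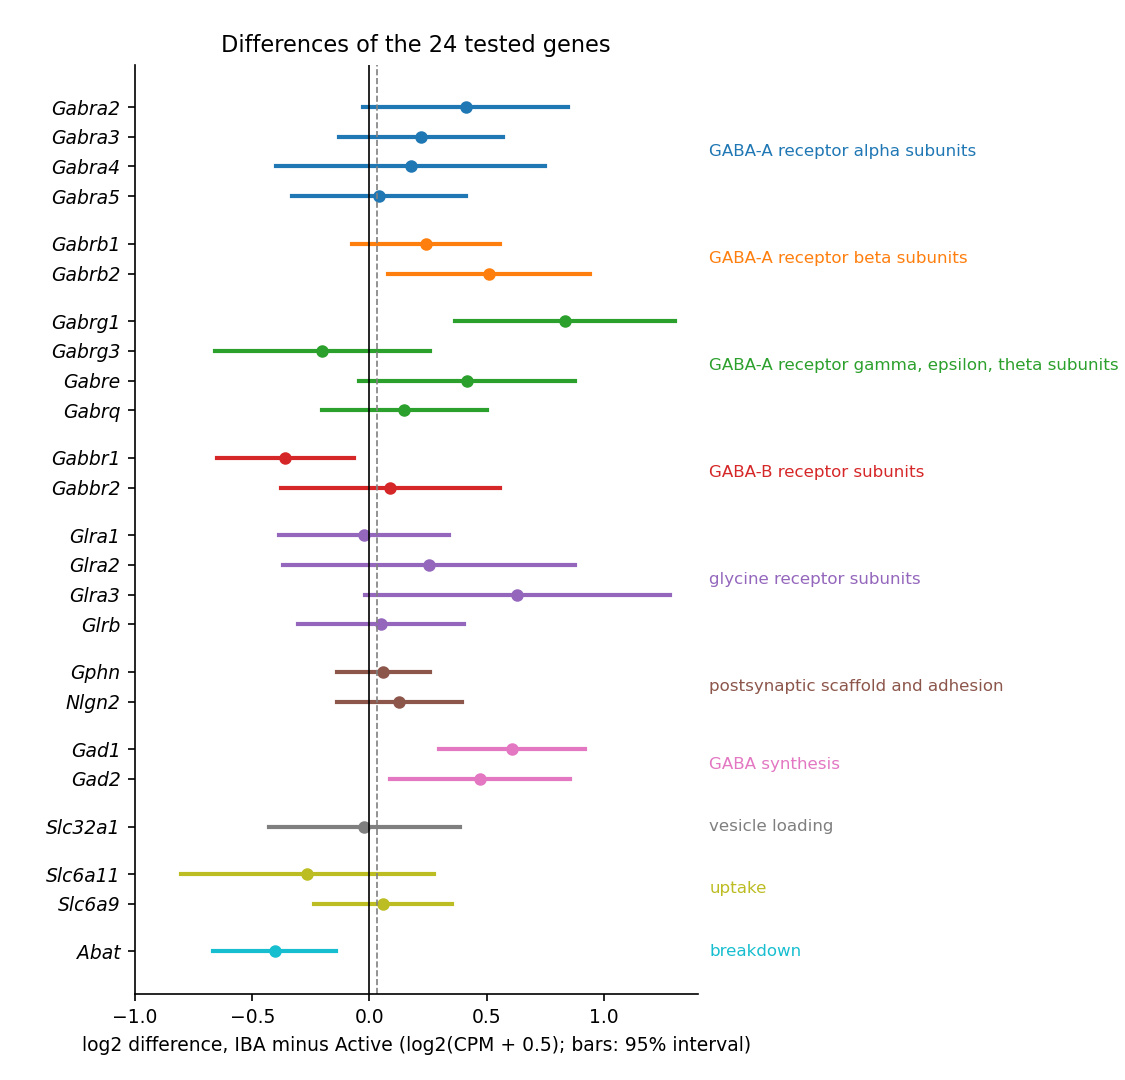
Log2 difference (IBA minus Active, on log2(CPM + 0.5)) of the 24 tested genes, grouped by role; points are limma estimates, bars their 95% intervals (n = 5 libraries per state), and the dashed line is the median of all genes tested, 0.03. The intervals of Gad1, Gad2, Gabrg1 and Gabrb2 lie above 0 and those of Abat and Gabbr1 below it before adjustment, and none passed after adjustment over all genes.

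Both GABA-synthesising enzymes had higher means in IBA, and neither passed the threshold in limma. Gad1, a glutamate decarboxylase found throughout GABA neurons, was at 102, 145, 162, 102 and 117 CPM in Active replicates 1 to 5 and at 218, 182, 175, 164 and 210.4 CPM in IBA replicates 1 to 5. Every IBA library lay above every Active library, although the gap between the highest Active and the lowest IBA value was narrow. Gad1 was the only one of the 24 with no overlap between states, and 3.59% of all genes tested showed such a separation in the higher direction. None was separated in the lower direction, beside 2.80% of all genes. The Gad1 mean was 126 ± 26.9 CPM in Active libraries and 189.9 ± 23.2 CPM in those of IBA (SD, n = 5 each), a log2 difference of 0.61 with a 95% interval from 0.30 to 0.92 (adjusted p = 0.0644 in limma). The adjusted p was 0.0738 in edgeR and 0.0103 in DESeq2. Leaving out each library in turn gave log2 differences from 0.54 to 0.71 with adjusted p from 0.0551 to 0.153 in limma. Without both Active replicates 4 and 5 the Gad1 difference was 0.49 (adjusted p = 0.257 in limma). That fit held fewer Active libraries and called no gene at all, so its adjusted p values are not on a par with those from all libraries.

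Gad2, the second glutamate decarboxylase, which is enriched at axon terminals, was at 182, 213, 288, 138 and 186 CPM in Active and at 329, 233, 240.1, 254 and 319 CPM in IBA. Active replicate 3 reached into the IBA range, and the other 4 Active libraries lay below every IBA library. The log2 difference was 0.47 with a 95% interval from 0.09 to 0.86 (adjusted p = 0.139 in limma). Without both Active replicates 4 and 5 it was 0.28 (adjusted p = 0.470 in limma). The log2 ratio of Gad1 to Gad2 within a library, which does not depend on library scaling, was -0.66 ± 0.17 in Active and -0.53 ± 0.12 in IBA (SD, n = 5 each). Its difference of 0.14 did not pass an exact two-sided permutation test (p = 0.190, adjusted p = 0.381 over 4 ratios; the smallest p that 5 against 5 libraries allow is 0.00794).

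The transporter that loads GABA and glycine into synaptic vesicles did not separate the states. Slc32a1 was at 36.6, 61.4, 57.4, 39.4 and 56.5 CPM in Active and at 49.9, 38.8, 53.6, 38.3 and 67.0 CPM in IBA. The states spanned nearly the same range, with means of 50.3 ± 11.4 and 49.5 ± 11.9 CPM (SD, n = 5 each). The log2 difference was -0.02, with a 95% interval from -0.43 to 0.39 in limma, which still allows a rise or a fall of that size. Its sign changed on leaving out single libraries.

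Abat, the GABA transaminase that breaks GABA down in mitochondria of neurons and glia, was the gene with the lowest adjusted p among those lower in IBA. It was at 434, 425, 421, 554 and 536 CPM in Active and at 364, 327, 422, 303 and 372 CPM in IBA. IBA replicate 3 just exceeded the lowest Active library, and the other 4 IBA libraries lay below all 5 Active libraries. The means were 474 ± 65.1 and 358 ± 45.7 CPM (SD, n = 5 each), a log2 difference of -0.40 with a 95% interval from -0.67 to -0.14 (adjusted p = 0.0921 in limma, 0.0888 in edgeR and 0.0219 in DESeq2). Without both Active replicates 4 and 5, which held the 2 highest values, the log2 difference was -0.26 (adjusted p = 0.345 in limma). Abat is expressed by astrocytes as well as neurons, and the astrocyte marker score was -0.16 to 0.23 in Active and -0.33 to 0.05 in IBA libraries, with 8 of 11 tested markers lower in IBA and summed levels of 8781 to 22471 and 11816 to 15743 CPM. The part of astrocytes in the Abat difference was not tested.

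**Figure D2:**
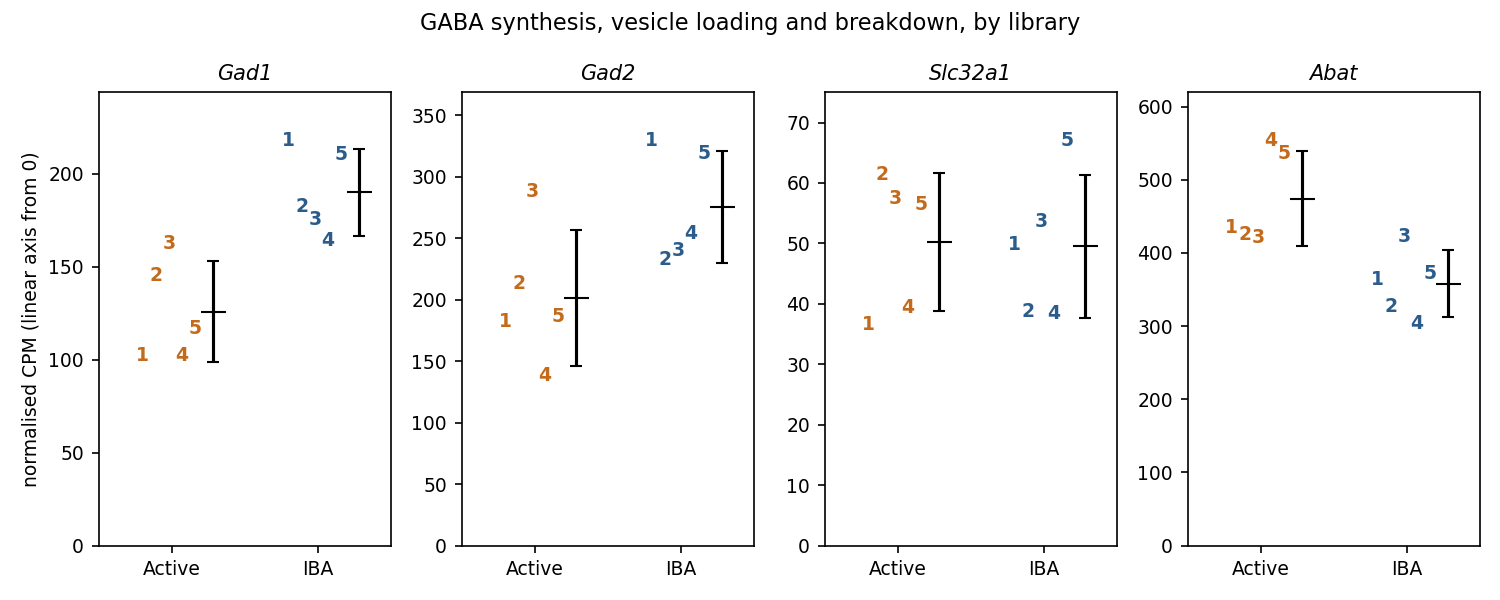
Normalised CPM of Gad1, Gad2, Slc32a1 and Abat on linear axes from 0; each digit is a library, numbered by replicate, and the bar at its right is the mean ± SD of the 5 libraries of a state. Gad1 values of IBA (164 to 218 CPM) all lie above those of Active (102 to 162 CPM), Slc32a1 values are interleaved, and Abat values lie lower in 4 of 5 IBA libraries.

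Among GABA-A receptor subunits, 10 of the 11 chosen were tested, and 9 of these had higher means in IBA. The 4 alpha subunits, which together with beta subunits form the GABA-binding site, had log2 differences from 0.04 to 0.41. Gabra2 was at 82.2, 73.3, 98.8, 56.0 and 56.2 CPM in Active and at 114, 115, 83.8, 62.5 and 114 CPM in IBA. IBA replicates 1, 2 and 5 exceeded every Active library, while IBA replicate 4 fell among the low Active values. Its log2 difference was 0.41 with a 95% interval from -0.03 to 0.85 (adjusted p = 0.235 in limma), and 0.18 without both Active replicates 4 and 5. Gabra3 and Gabra4 had differences of 0.22 and 0.18 (adjusted p = 0.427 and 0.721 in limma). That of Gabra3 was 0.13 without Active replicate 4 and 0.35 without IBA replicate 4. That of Gabra4 was 0.0144 and 0.38 without those libraries, and 0.0373 without IBA replicate 5. Gabra5, known in rodents for extrasynaptic receptors of the hippocampus, was at 20.7 to 35.4 CPM in Active and 22.3 to 34.3 CPM in IBA, and its difference of 0.04 changed sign in several alternative settings.

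Both beta subunits also had higher means in IBA. Gabrb2 was at 28.6, 35.3, 57.2, 40.5 and 33.5 CPM in Active and at 53.0, 63.5, 69.2, 36.6 and 55.3 CPM in IBA. The ranges overlapped through Active replicate 3, which was high, and IBA replicate 4, which was low. The log2 difference was 0.51 with a 95% interval from 0.08 to 0.94 (adjusted p = 0.149 in limma). Gabrb1 was at 97.7 ± 20.8 CPM in Active libraries and 114 ± 13.3 CPM in those of IBA (SD, n = 5 each), which differed by 0.24 (adjusted p = 0.327 in limma). That of Gabrb1 was 0.04 without both Active replicates 4 and 5.

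Gabrg1, a gamma subunit, had the largest difference of the 24 tested genes. It was at 19.4, 11.0, 21.1, 11.4 and 10.5 CPM in Active and at 33.6, 26.7, 22.4, 20.1 and 26.1 CPM in IBA. In IBA 4 of 5 libraries lay above the highest Active library, and IBA replicate 4 lay between Active replicates 1 and 3. The mean was 14.7 ± 5.13 CPM in Active libraries and 25.8 ± 5.14 CPM in those of IBA (SD, n = 5 each), 1.76 times as high, with a log2 difference of 0.83 (95% interval 0.36 to 1.30). The adjusted p was 0.0746 in limma, 0.0915 in edgeR and 0.0201 in DESeq2. Leaving out each library in turn gave log2 differences from 0.73 to 0.98, and the difference was 0.61 without both Active replicates 4 and 5 (adjusted p = 0.290 in limma).

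The remaining subunits differed in direction. Gabrg3 was at 3.58 ± 0.785 CPM in Active libraries and 3.09 ± 0.949 CPM in those of IBA (SD, n = 5 each), the one tested GABA-A subunit with a lower mean in IBA (log2 difference -0.20, adjusted p = 0.591 in limma, and -0.33 to -0.0956 on leaving out single libraries). Gabre and Gabrq encode the epsilon and theta subunits, which in rodents are best known from the hypothalamus and brainstem. Gabre was at 46.9 ± 13.9 and 61.8 ± 14.5 CPM (SD, n = 5 each), a log2 difference of 0.42 (adjusted p = 0.252 in limma) that was 0.25 without Active replicate 5, its lowest library. Gabrq was at 249 ± 47.2 and 276 ± 48.9 CPM (SD, n = 5 each), which differed by 0.15 (adjusted p = 0.603 in limma). The Gabrq difference was 0.0485 without Active replicate 4 and 0.28 without IBA replicate 4. Gabrd, the delta subunit of extrasynaptic receptors, was under the condition on its mean, with 2 to 18 reads per library. Its mean was 0.429 CPM in Active libraries and 0.231 CPM in those of IBA (n = 5 each, exact two-sided permutation p = 0.159).

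**Figure D3:**
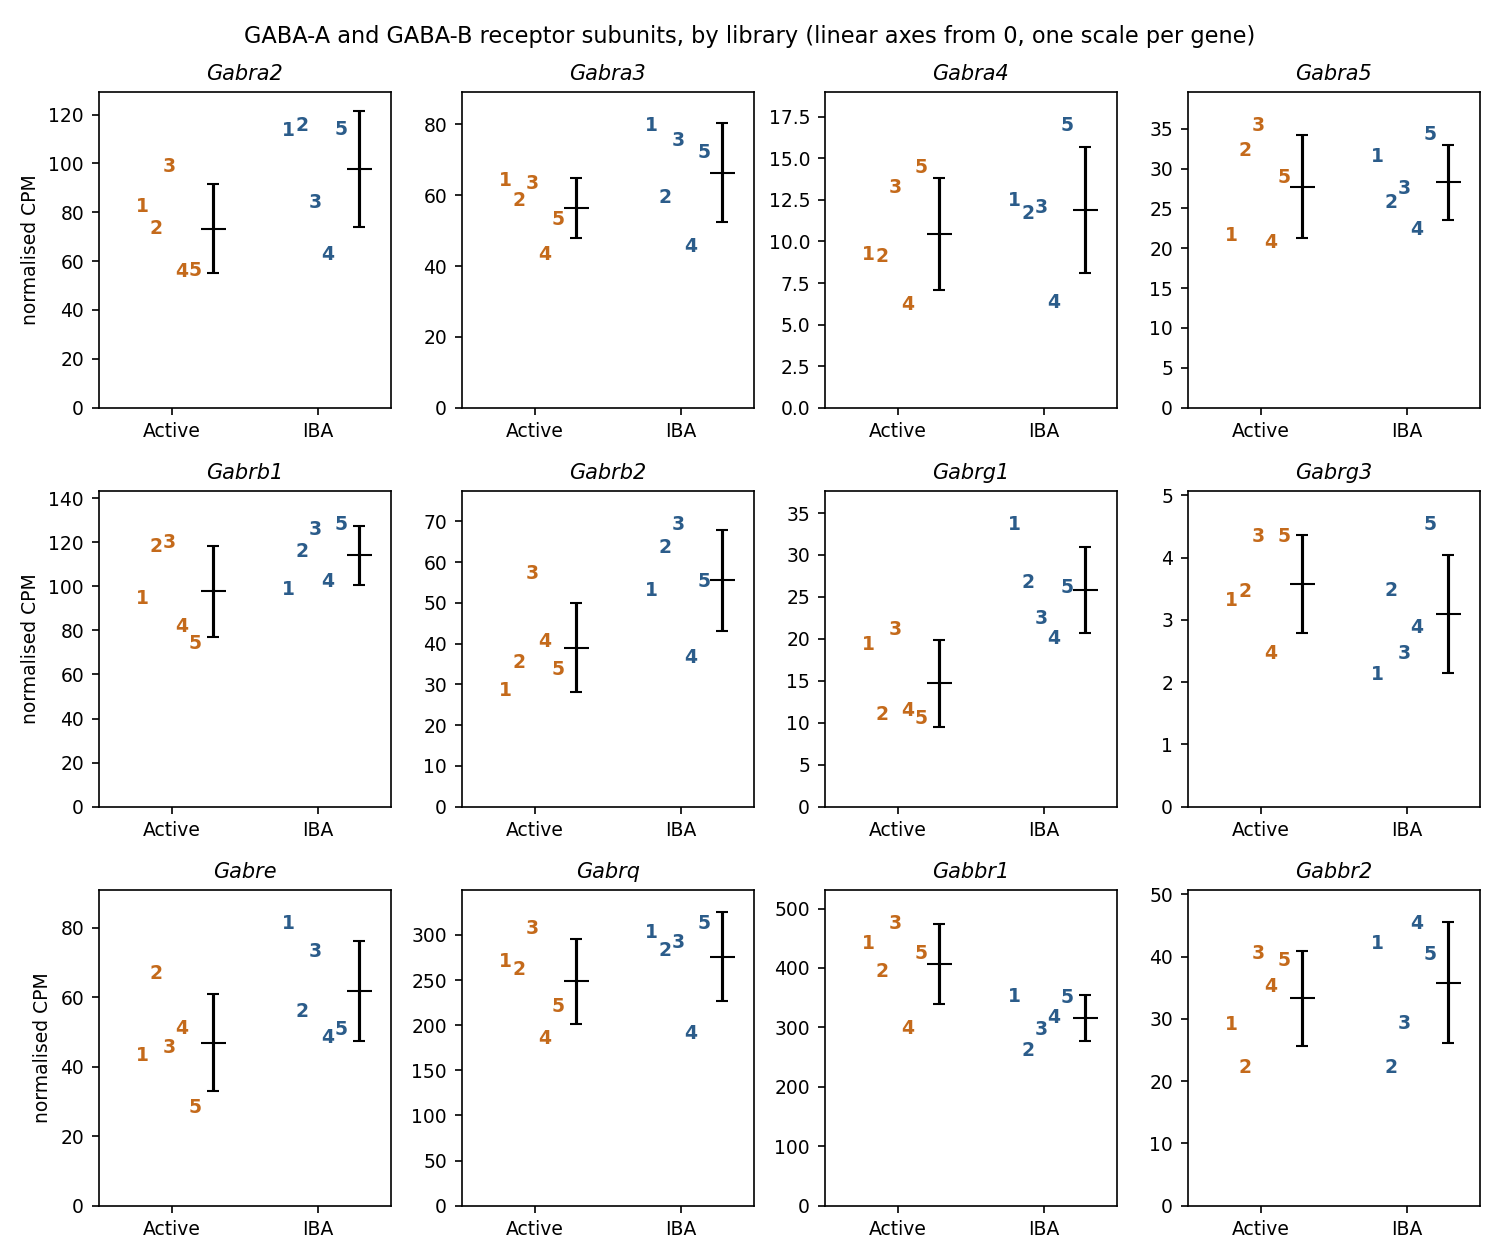
Normalised CPM of the tested GABA-A subunits and of both GABA-B subunits, each gene on its own linear axis from 0; digits are libraries numbered by replicate and bars are mean ± SD (n = 5 per state). Gabrg1 is higher in 4 of 5 IBA libraries than in any Active library, Gabbr1 is lower in all 5 IBA libraries than in 4 of 5 Active libraries, and IBA replicate 4 is the lowest IBA library for all 4 alpha subunits.

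The GABA-B receptor works as a pair of Gabbr1, which binds GABA, and Gabbr2, which couples to the G protein, and their means differed in opposite directions, neither past the threshold in limma. Gabbr1 was at 442, 394, 474, 298 and 424 CPM in Active and at 353, 260.3, 297, 316 and 349.6 CPM in IBA. Active replicate 4 lay within the IBA range, and the other 4 Active libraries lay above all 5 IBA libraries. The log2 difference was -0.36 (95% interval -0.65 to -0.06), with an adjusted p of 0.140 in limma, 0.106 in edgeR and 0.0472 in DESeq2. Gabbr2 was at 33.3 ± 7.64 and 35.8 ± 9.75 CPM (SD, n = 5 each), with a log2 difference of 0.09 (95% interval -0.38 to 0.56). The within-library log2 ratio of Gabbr1 to Gabbr2 was 3.60 ± 0.41 in Active and 3.16 ± 0.28 in IBA (SD, n = 5 each), a difference of -0.45 that did not pass (exact permutation p = 0.0794, adjusted p = 0.317 over 4 ratios).

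Glycine receptor subunits showed no called difference. Glra3, an alpha subunit, was at 17.0, 16.6, 16.2, 9.56 and 5.23 CPM in Active and at 18.0, 15.6, 28.5, 14.9 and 18.7 CPM in IBA. Active replicates 4 and 5 were low and IBA replicate 3 was high, and the remaining 7 libraries lay close together. The log2 difference of 0.63 with a 95% interval from -0.02 to 1.28 (adjusted p = 0.222 in limma) was 0.35 without Active replicate 5 and 0.16 without both Active replicates 4 and 5. Glra2, the alpha subunit that prevails in the developing brain of rodents, was at 17.7 ± 5.87 and 21.6 ± 7.78 CPM (SD, n = 5 each), which differed by 0.26 (adjusted p = 0.619 in limma). The Glra2 difference was 0.0647 without Active replicate 4, 0.12 without IBA replicate 1 and 0.47 without IBA replicate 3. Glra1, the main alpha subunit of the adult spinal cord and brainstem, was at 1.92 ± 0.357 and 1.87 ± 0.284 CPM (SD, n = 5 each). Glrb, the beta subunit that ties the receptor to gephyrin, was at 17.0 ± 3.48 and 17.4 ± 2.09 CPM (SD, n = 5 each), with a 95% interval of its log2 difference from -0.30 to 0.40.

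Gphn, which encodes gephyrin, the scaffold under both GABA-A and glycine receptors, was at 73.0 ± 7.44 CPM in Active libraries and 75.8 ± 3.32 CPM in those of IBA (SD, n = 5 each). Its log2 difference of 0.06 had the narrowest 95% interval of the 24 genes, from -0.14 to 0.26. Nlgn2, an adhesion protein of inhibitory synapses, was at 18.3 ± 0.899 and 20.2 ± 3.19 CPM (SD, n = 5 each), a difference of 0.13 (95% interval -0.14 to 0.39).

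Uptake genes overlapped between states. Slc6a11, a GABA transporter of astrocytes, was at 67.0, 46.8, 43.6, 35.4 and 83.9 CPM in Active and at 62.7, 41.2, 27.6, 44.4 and 50.8 CPM in IBA. Each state held libraries across most of the common range, and the log2 difference was -0.27 with a 95% interval from -0.80 to 0.27 (adjusted p = 0.541 in limma). It was -0.0987 without Active replicate 5, -0.10 without IBA replicate 3 and -0.41 without Active replicate 4. Slc6a9, the glycine transporter of glia, was at 51.9 ± 7.12 and 54.3 ± 9.02 CPM (SD, n = 5 each), a difference of 0.06 (95% interval -0.24 to 0.35). Slc6a5, the glycine transporter that marks glycinergic neurons, had 0 to 13 reads per library, and 6 of 10 libraries were at or under the 3 reads that a count of 0 allows. Its mean was 0.217 CPM in Active libraries and 0.0666 CPM in those of IBA (n = 5 each, exact permutation p = 0.206), and no ratio with Slc6a9 was formed.

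The neuronal chloride exporter had low values in both states. Whether the gene model behind the counts covers the whole transcript could not be checked, so neither its level nor its ratio to another gene can be read as an absolute amount. Slc12a5 had 10 to 41 reads per library and was at 0.782, 0.398, 1.33, 0.925 and 1.27 CPM in Active and at 0.558, 0.798, 0.410, 0.609 and 0.754 CPM in IBA. Active replicates 3, 4 and 5 lay above every IBA library, and Active replicate 2 was the lowest of all 10. The means were 0.940 ± 0.380 and 0.626 ± 0.156 CPM (n = 5 each), a log2 difference of -0.32 (exact two-sided permutation p = 0.175). Leaving out single libraries gave -0.48 to -0.22, and without Active replicate 2 the difference was -0.48 (exact permutation p = 0.0238, not adjusted), the only one of 17 alternatives under 0.05. Slc12a2, the chloride importer and not one of the 27, was at 28.1 ± 22.6 and 22.6 ± 10.4 CPM (SD, n = 5 each). Active replicate 4 held the top value of 67.9 CPM and was the library with the high choroid plexus score. The log2 ratio of Slc12a5 to Slc12a2 was -4.09 ± 1.04 in Active and -4.26 ± 0.74 in IBA (SD, n = 5 each, exact permutation p = 0.746, adjusted p = 0.746 over 4 ratios), and its difference of -0.17 turned positive on leaving out Active replicate 3 or 5 or IBA replicate 3.

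Single libraries shifted many of these genes together. Active replicate 4 had 3 of the 24 tested genes above their own mean over the 10 libraries, and IBA replicate 4 had 7. Active replicate 3 and IBA replicates 1 and 5 had 19, 19 and 18. The general neuron score was -0.18 in Active replicate 4 and -0.42 in IBA replicate 4. It was 0.16, 0.10 and 0.27 in Active replicate 3 and IBA replicates 1 and 5. In Active replicates 1, 2 and 5 it was -0.05, 0.14 and -0.15, with 11, 12 and 11 genes above their mean. In IBA replicates 2 and 3 it was 0.15 and -0.02, with 15 and 17 genes. The lowest scores, those of replicate 4 in each state, went with the fewest genes, and the highest, of IBA replicate 5, with 18. The match was not exact, since IBA replicate 3 had 17 genes at -0.02 and Active replicate 2 had 12 at 0.14. What part neuron content has in these shared shifts was not tested. With the neuron score as a covariate in limma, the log2 differences of Gad1, Gabrg1 and Abat were 0.58, 0.81 and -0.40. The mean score differed by only 0.03 between the states, so this covariate could change a state difference very little. Near-unchanged values therefore do not show what part neurons have in these differences. None of the 24 genes was called in that fit. At an unadjusted p under 0.05 it had 7 of the 24, beside 3593 of all 15445 genes tested. Markers of GABAergic neurons other than the 27 genes had scores of -0.30 to 0.21 in Active and -0.23 to 0.43 in IBA libraries, with summed levels of 90.2 to 136 and 91.3 to 141 CPM. Of their 9 tested markers, 6 were higher and 3 lower in IBA and none was called, and Lhx6, Sp8 and Vip were among those with means under 1 CPM. What part a shift in GABAergic cells has in the Gad1 difference was not tested.

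**Figure D4:**
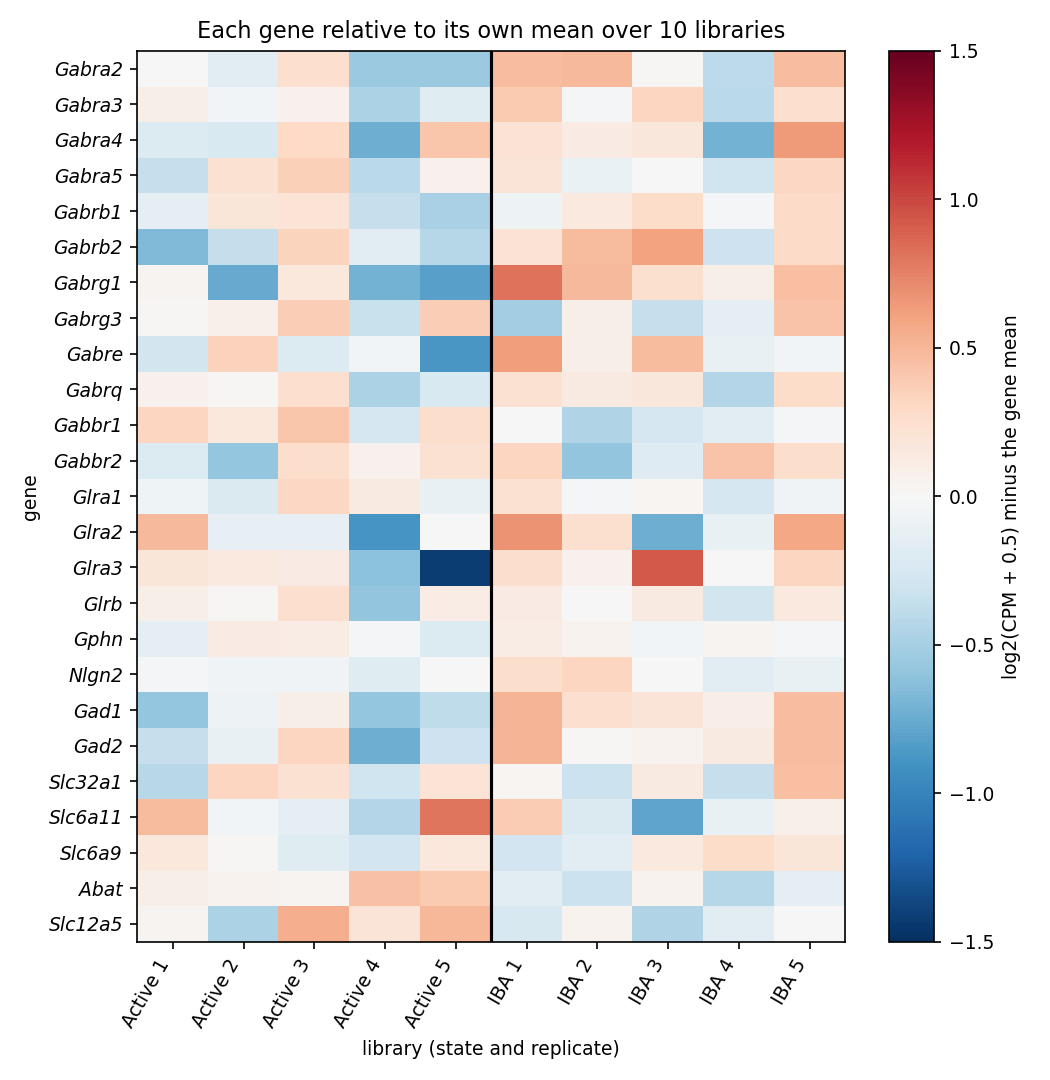
Each of the 25 genes in each library as log2(CPM + 0.5) with the average of that gene over all 10 libraries subtracted (red higher, blue lower; the vertical line divides Active from IBA). Active replicate 4 is below the mean for most genes, Gad1 is below or near its mean in Active and above it in IBA, and Abat and Gabbr1 show the opposite in most libraries.

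Other genes of inhibitory signalling were taken from 5 lists, and none of their 78 tested genes was called in limma or edgeR. DESeq2 called 2 GABA shunt, glutamine and glycine cleavage genes, both higher in IBA. It also called 1 transporter or chloride regulator and 2 synapse organisers, all lower in IBA, and none in the other lists. Of all genes DESeq2 called 9.93%. Transporters and chloride regulators had a median log2 difference of -0.05, with 7 of 17 higher, and GABA shunt, glutamine and glycine cleavage genes one of 0.02, with 9 of 16 higher. Synapse organisers had a median of -0.01, with 11 of 25 higher, and GABA-B auxiliary subunits and effectors one of -0.03, with 6 of 13 higher.

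Only 3 of these 78 genes had no overlap between states, beside 6.38% of all genes tested. Slc38a2, a transporter that supplies glutamine for transmitter synthesis, was at 59.2, 60.1, 60.6, 53.2 and 54.1 CPM in Active and at 95.4, 103, 112, 69.3 and 80.6 CPM in IBA, so that the Active libraries were tightly grouped and the IBA libraries all higher. Its log2 difference was 0.66 with a 95% interval from 0.38 to 0.93 (adjusted p = 0.0510 in limma, 0.0503 in edgeR and 3.88e-04 in DESeq2). Oxsr1, a kinase that phosphorylates chloride cotransporters, was at 30.4 ± 4.95 and 21.8 ± 2.24 CPM (SD, n = 5 each). These differed by -0.46 (adjusted p = 0.0794 in limma, 0.0738 in edgeR and 0.0103 in DESeq2). Ubqln1, a ubiquitin-binding protein that stabilises GABA-A receptors, was at 341 ± 42.8 and 263 ± 19.5 CPM (SD, n = 5 each). These differed by -0.36 (adjusted p = 0.0819 in limma, 0.0738 in edgeR and 0.00834 in DESeq2).

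In the authors' deposited table, none of the 27 genes had an FDR under 0.05, beside 0.0462% of all its genes, and the lowest FDR was 0.204, for Abat. All 24 tested genes had the same sign in the authors' deposited table as in limma. Both rest on these libraries, so neither is separate support for the other.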

How the data were processed

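Polyadenylated RNA of the hand-dissected subfornical organ was sequenced in 10 libraries, 5 per state, with group and replicate number read from each title. The series' design text calls them biological replicates. Per the submitters' processing notes, the tools were R 4.2.1, edgeR 3.38.4, Subread 2.0.1 with featureCounts, STAR 2.7.7a and Trimmomatic 0.39. Not given in the sources used here are the build, the annotation and the strand setting. Overlapping and antisense genes may therefore share reads. The deposited table holds, per the file headers, normalised CPM per library, a signal whose column sums differ, with a log2 fold change and average log2 CPM, an F statistic (a score), a p-value and an FDR. Because the deposited fold changes are Active minus IBA, they were used with the opposite sign.

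In every library 100% of CPM values were whole multiples of 1 read, within 0.01 of a read. A value of 3 reads was 0.0882 to 0.132 CPM, for counting error only. Within each state, every pair of libraries differed by more than sampling noise. Genes averaging 1 CPM or more were tested with limma 3.58.1 in R 4.3.3 on log2(CPM + 0.5) with an intensity trend, two-sided, with Benjamini-Hochberg adjustment over all genes at 0.05. Genes under the filter, and ratios, were compared by exact permutation over 252 assignments. edgeR 4.0.16 and DESeq2 1.42.0 on the recovered reads were alternatives, beside changes of pseudocount, filter, scaling, variance model, weights, covariates, pairing and libraries. The test was checked on simulated data. Every one of the 27 genes was to be named, and genes of other lists were named where their states did not overlap, with 5 to be named whatever their result. Some of these, and 1 of the 4 ratios, are not reported here. The members and lists were chosen with earlier results of these data known. Symbols were used as the table gives them, and no sequence is shown, since none was in the files used.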

Additional observations from a re-analysis of the deposited data

Results flagged for a closer look

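In 3 of 58 groups of 5 libraries examined (25 genes and 4 ratios, each in both states), 1 library lay far from the others, where chance gives about 1 in 20. Gabrq in IBA held 191 CPM in replicate 4, against 283 to 312 CPM in the other IBA libraries. This library also had the lowest neuron score, -0.42. Glra3 in IBA held 28.5 CPM in replicate 3, against 14.9 to 18.7 CPM in the others. Nlgn2 in Active held 16.7 CPM in replicate 4, against 18.4 to 19.0 CPM in the others, a small gap in a gene whose Active values were otherwise close together. Active replicate 4 was the library with the high choroid plexus score.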

How the results depend on the processing

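Over 24 alternative settings, the number of the 24 tested genes called stayed at 0 in all but DESeq2, which called 4 (Gabrg1, Gabbr1, Gad1 and Abat). The number with higher means in IBA ranged from 15 to 20 and their median log2 difference from 0.045 to 0.23. Of the 25 genes meeting the condition, 18 kept their direction in every alternative run on them. Over all genes, 62 calls became 6 with no filter on low values, 121 with library weights, 1527 in DESeq2 and 0 without both Active replicates 4 and 5 (2191 at an unadjusted p under 0.05 in limma), and 4 to 245 on leaving out each library in turn. Directions changed for 7 genes. Gabra5 was at -0.0152 with equal library totals, -0.0201 with the choroid plexus covariate, -0.0049 in edgeR, -0.0031 in DESeq2 and -0.0571 without both Active libraries. Glrb was at -0.0073, -0.0102 and -0.0924 with equal totals, that covariate and without both libraries. Glra1 was at 0.0023 with library weights, and Gabrq at -0.0367 without both libraries. Leaving out single libraries gave -0.0535 to 0.14 for Gabra5, -0.0465 to 0.25 for Gabbr2, -0.0856 to 0.0491 for Glra1, -0.0917 to 0.13 for Glrb, -0.14 to 0.0617 for Slc32a1 and -0.0063 to 0.14 for Slc6a9. It gave -0.54 to 0.13 for the Slc12a5 to Slc12a2 ratio. The cause of these changes was not tested.

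The labels link same-numbered libraries of the states by their number only. Their deviations correlated at 0.12, 0.10, -0.17, -0.01 and 0.20. For Active replicates 1 to 5 the best-matching IBA libraries were replicates 1, 2, 1, 3 and 5. Whether same-numbered libraries share more than the number is not known. With the replicate number as a block, 231 genes and 0 of the 24 were called, and the ratios gave no call, since 5 pairs allow no exact p under 0.0625. Slc12a5, Gabrd and Slc6a5 rest on few reads, which limits their precision. The planned ratio of Slc6a5 to Slc6a9 was not run, because Slc6a5 lay under the condition. Ratios were therefore adjusted over the 4 that were run.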

Other observations

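The level of a gene for making GABA was also set against that of the gene for loading it into vesicles within each library. The log2 ratio of Gad1 to Slc32a1 was 1.47, 1.24, 1.49, 1.37 and 1.04 in Active replicates 1 to 5 and 2.12, 2.22, 1.70, 2.08 and 1.64 in IBA replicates 1 to 5. Every IBA library lay above every Active library, with means of 1.32 and 1.95. This ratio does not depend on library scaling. It was chosen after the values of both genes were seen, so no test is given. The ratio of Gad2 to Slc32a1 had means of 1.98 in Active and 2.48 in IBA, and its ranges overlapped, at 1.71 to 2.32 and 2.15 to 2.71.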
